A study of Mus musculus with 6 samples.

Results

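The genes described here are 52 mouse genes of DNA damage signaling and repair, chosen by name for their part in the removal of DNA crosslinks, in excision repair and in recombination. They were sorted into 8 classes: the Fanconi anemia pathway (10 genes), homologous recombination (17), damage signaling (6), nucleotide excision repair (6), structure-specific nucleases (4), translesion synthesis (5), mismatch repair (2) and base excision and single-strand break repair (2). All 52 were found among the 54446 gene identifiers of the count table, and all 52 were among the 14956 genes that had at least 10 counts in at least 2 libraries. Poly(A) RNA was sequenced from TRAMP-C2 cells, an established line of the TRAMP model, in which a probasin promoter drives SV40 T antigens in the prostate of C57BL/6 mice. Cells were left without drug (control, 2 libraries), or were given 2 µM oxaliplatin (2 libraries) or 2 µM cisplatin (2 libraries), and were collected at 24 h. All groups come from this 1 line, whose transgene blocks p53 and the retinoblastoma protein where it is expressed. Whether the transgene was expressed in these cells was not examined. The labels do not say that the 2 libraries of a group came from separate cultures, so the p-values measure the spread between these libraries, which may be technical.

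The libraries held 21345312 to 24041767 counts each, so that 3 counts, the limit that a count of 0 allows, corresponded to 0.125 to 0.141 CPM. Replicate libraries correlated with Pearson's r of 0.986 (control), 0.988 (oxaliplatin) and 0.987 (cisplatin) over the log2 values of the 14956 genes. Of the epithelial and prostate markers, Krt8 had 93 to 133 counts per library, Krt18 112 to 173, Krt14 79 to 163, and Cdh1 356 to 562, while Krt5 and Pbsn, the probasin gene, had 0 counts in all 6 libraries and Epcam had 0 to 2. The leukocyte markers Ptprc and Cd3e had at most 1 count in any library and Cd68 had 30 to 51, while the endothelial markers Pecam1 and Cdh5 had 1 to 8 and 0 to 1.

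Both drugs are platinum(II) compounds that bind neighboring purines of DNA, mostly on 1 strand, and less often join both strands in an interstrand crosslink. They differ in the groups held by the platinum atom: cisplatin carries ammine groups that stay on the DNA adduct and chlorides that leave, whereas oxaliplatin carries a bulky diaminocyclohexane ring that stays and an oxalate that leaves. Intrastrand adducts are cut out by nucleotide excision repair or are passed by translesion polymerases. At an interstrand crosslink, FANCM and the Fanconi anemia core complex place ubiquitin on FANCI and FANCD2, nucleases held by SLX4 cut beside the crosslink, and the resulting double-strand break is mended by homologous recombination under the control of the ATM and ATR kinases. Mismatch repair proteins recognize platinum adducts of cisplatin better than those of oxaliplatin. Many of these genes are transcribed mainly in S phase, under E2F factors.

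The promoters of 6 genes on which the results below turn are shown here, each as the 250 bases before the RefSeq start on the strand of the gene (GRCm38.p6), with every CCAAT box on either strand in capitals. Mre11a (chr9:14784404-14784653, plus strand) was higher after both drugs. Rad54l (chr4:116123691-116123940, minus strand) and Atm (chr9:53536672-53536921, minus strand) were also higher after both. Msh6 (chr17:87974800-87975049, plus strand), Atr (chr9:95857347-95857596, plus strand) and Brca1 (chr11:101551956-101552205, minus strand) differed between the drugs.
Mre11a: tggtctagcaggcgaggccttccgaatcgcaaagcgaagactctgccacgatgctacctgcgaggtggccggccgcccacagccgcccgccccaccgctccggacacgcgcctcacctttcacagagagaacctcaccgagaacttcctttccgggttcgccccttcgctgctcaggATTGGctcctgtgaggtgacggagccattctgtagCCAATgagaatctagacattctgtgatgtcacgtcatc
Rad54l: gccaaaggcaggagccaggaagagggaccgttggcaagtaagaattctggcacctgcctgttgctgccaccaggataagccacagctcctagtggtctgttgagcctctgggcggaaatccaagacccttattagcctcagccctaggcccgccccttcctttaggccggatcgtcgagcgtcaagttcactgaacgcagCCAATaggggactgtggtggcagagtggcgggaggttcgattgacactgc
Atm: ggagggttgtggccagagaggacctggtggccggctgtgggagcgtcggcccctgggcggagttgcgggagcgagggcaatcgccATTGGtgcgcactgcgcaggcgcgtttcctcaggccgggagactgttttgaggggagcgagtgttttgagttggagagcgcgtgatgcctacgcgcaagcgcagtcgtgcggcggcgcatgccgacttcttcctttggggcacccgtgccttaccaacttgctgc
Msh6: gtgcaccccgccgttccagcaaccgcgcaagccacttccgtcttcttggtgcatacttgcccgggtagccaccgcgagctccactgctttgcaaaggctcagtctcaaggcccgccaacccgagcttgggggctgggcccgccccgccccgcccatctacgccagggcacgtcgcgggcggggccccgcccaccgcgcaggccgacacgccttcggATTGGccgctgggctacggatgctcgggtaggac
Atr: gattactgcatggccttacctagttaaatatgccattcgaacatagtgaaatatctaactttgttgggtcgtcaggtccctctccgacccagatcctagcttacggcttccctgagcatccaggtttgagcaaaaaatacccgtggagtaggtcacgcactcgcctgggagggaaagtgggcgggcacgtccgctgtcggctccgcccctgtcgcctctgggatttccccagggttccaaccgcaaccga
Brca1: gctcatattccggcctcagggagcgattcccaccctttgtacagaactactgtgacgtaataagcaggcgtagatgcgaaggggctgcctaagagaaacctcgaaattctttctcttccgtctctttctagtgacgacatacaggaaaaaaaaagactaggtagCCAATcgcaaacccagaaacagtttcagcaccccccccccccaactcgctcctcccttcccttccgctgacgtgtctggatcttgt
The Mre11a window held 2 CCAAT boxes, those of Rad54l, Atm, Msh6 and Brca1 held 1 each, and that of Atr held 0. Such a window was found for 41 of the 52 genes. The letters CCAAT stood in 22 of the 41 windows (53.7%), against 37.1% of the 10389 windows of tested genes and 34.5% of all 27025 windows. E2F-like letters on either strand (TTGGCGC or its variants TTCCCGC and TTGCCGC or else TTCGCGC) stood in 13 of the 41 (31.7%), against 14.2% of tested genes and 7.97% of all. Read on the other strand, TTGGCGC becomes GCGCCAA, which can overlap a CCAAT box. None of the 6 windows shown held E2F-like letters, whereas 2 matches each were found for Topbp1 and Fancm. The letters TTTGAA, the core of the cell cycle homology region, stood in 0 of the 41 windows, against 10.5% of tested genes. Median GC content was 58.0% for the 41 windows and 60.0% for those of tested genes. These are matches of letters and were not tested as sites.

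The repair genes were expressed at moderate levels. Their median was 589 normalized counts (counts divided by the size factor of the library) over the 6 libraries, with a range of 95.7 for Fancf to 4652 for Topbp1, against a median of 481 for all tested genes. Per kilobase of exon, control levels were highest for Msh6, a mismatch recognition subunit, with 828 normalized counts per kb. Usp1, the protease that takes ubiquitin off FANCD2, had 827 per kb and Parp1, the sensor of strand breaks, 762 per kb. At the other end stood Palb2, which links BRCA1 to BRCA2, with 18.9 per kb, the nuclease gene Fan1 with 19.3 per kb and Atr with 27.4 per kb. The length used joins all annotated exons of a gene, 23629 bases for Atr, so these values depend on the annotated transcripts. The counts of Atr in both control libraries, given below, exceeded the median of 589. The replicates of these genes were close, with a median difference between replicate libraries on the log2 scale of 0.09 for the control pair and 0.06 for each drug pair.

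**Figure D1:**
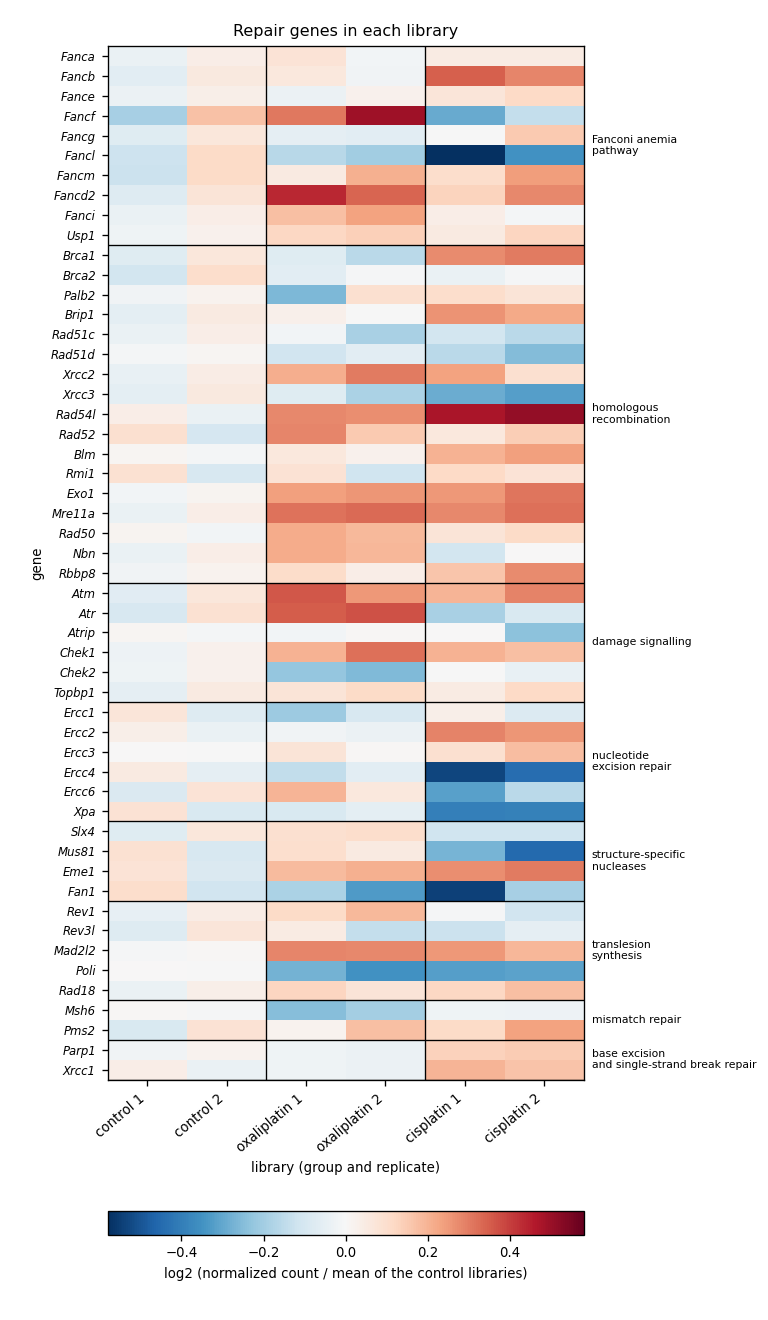
Heat map of the 52 repair genes (rows, by class) in the 6 libraries (columns), colored by the log2 ratio of the normalized count to the mean of the 2 control libraries. Rad54l, Exo1, Mre11a and Atm are red in all 4 libraries of treated cells, while Atr and Nbn are red in the oxaliplatin libraries and Ercc4, Xpa and Mus81 blue in the cisplatin libraries.

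After each drug a minority of the repair genes passed as changed, and every estimated log2 fold change was below 0.5 in size. After oxaliplatin 10 of 52 genes passed the test (adjusted p under 0.05; 19.2%), 9 higher and 1 lower, against 20.2% of all tested genes (10.7% higher and 9.5% lower). After cisplatin 9 of 52 passed (17.3%), 8 higher and 1 lower, against 28.1% of all tested genes (15.7% higher and 12.4% lower). With total-count scaling in place of median-of-ratios factors, 4 were higher and 3 lower after cisplatin, and with TMM scaling 7 and 2. With DESeq2 the share of repair genes that passed was thus near that of all tested genes after oxaliplatin and below it after cisplatin. It was below that of the 9886 tested genes in the same range of mean counts after both drugs (25.3% and 35.4%). With edgeR it was 30.8% after oxaliplatin, against 30.9% of all tested genes, and 46.2% after cisplatin, against 40.9%, so that the side of the background on which the cisplatin share lay turned with the test. Rad54l, Exo1, Mre11a and Atm were higher after both drugs. Fancd2, Rad50, Atr, Chek1 and Mad2l2 passed as higher and Msh6 as lower after oxaliplatin, while Brca1, Brip1, Rbbp8 and Parp1 passed as higher and Ercc4 as lower after cisplatin. The other 37 genes passed in neither comparison. Both comparisons use the same 2 control libraries, so that a control library that lies low or high moves both.

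Across all 52 genes the log2 fold change ran from -0.31 to 0.40 after oxaliplatin, with a median of 0.04, and from -0.49 to 0.49 after cisplatin, with a median of 0.09. The median of all tested genes was 0.00 and 0.00, respectively. No repair gene had a log2 fold change beyond 0.5 after either drug. Of the 9886 tested genes whose mean count lay in the range of the repair genes, 6.72% did so after oxaliplatin and 10.9% after cisplatin, and 25.3% and 35.4% passed the test. The limit of 0.5 was chosen after the values were seen. The 95% interval of the change lay wholly within 0.5 of 0 for 42 of 52 genes after oxaliplatin and for 39 after cisplatin, at a median SE of 0.116. Thus for most repair genes the data bound the change below 0.5, whereas for the others the interval reached beyond it at this depth. The libraries of treated and control cells did not overlap for 34 of 52 genes after oxaliplatin (65.4%, against 64.8% of all tested genes; 23 above control, against 32.1% of all tested genes, and 11 below, against 32.7%) and for 37 after cisplatin (71.2%, against 69.4%; 25 above, against 34.6%, and 12 below, against 34.8%).

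**Figure D2:**
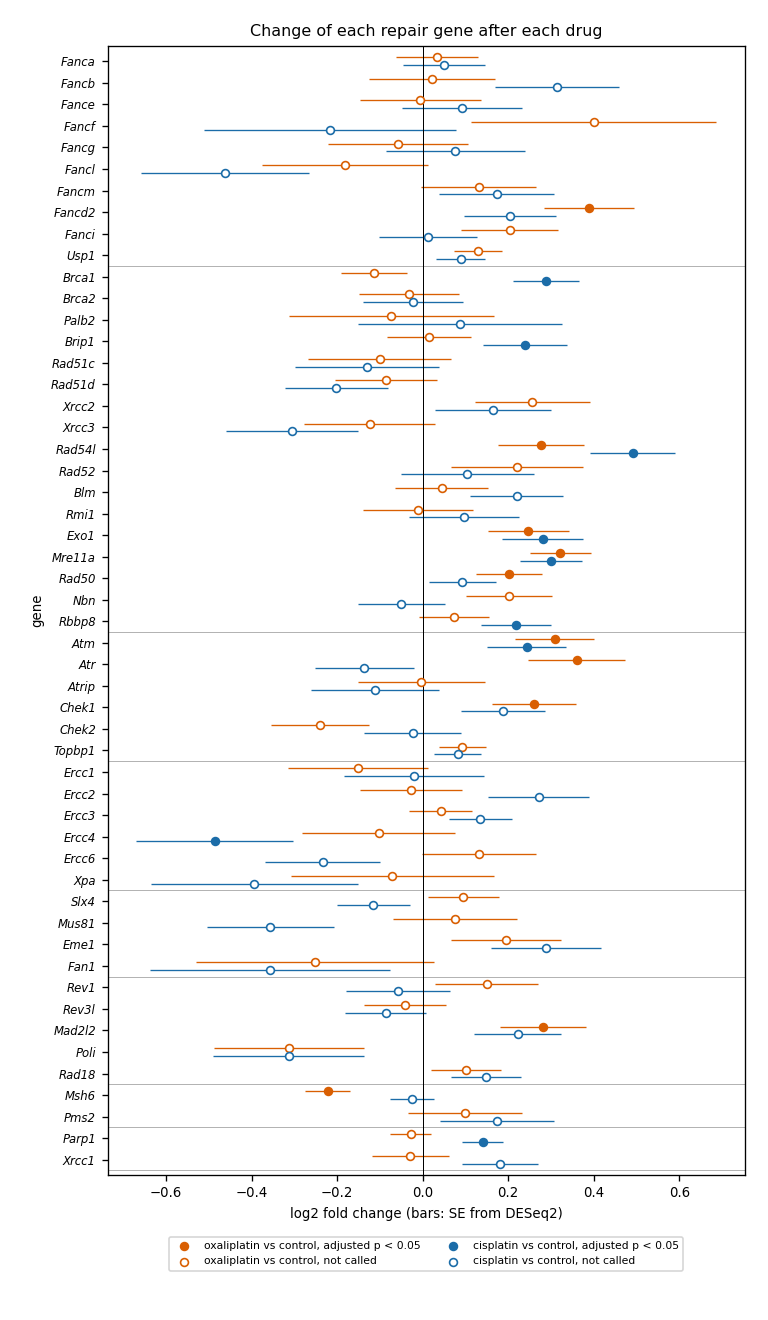
Log2 fold change of each repair gene (rows, by class) after oxaliplatin and after cisplatin against control, with bars for the SE of the DESeq2 fit and filled symbols for adjusted p under 0.05. The points lie between -0.49 and 0.49.

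Homologous recombination, the largest class, held the most genes that passed. Of its 17 genes, 4 were higher after oxaliplatin (23.5%) and 6 after cisplatin (35.3%), and 0 were lower, while 20.2% and 28.1% of all tested genes passed, or 25.3% and 35.4% of the 9886 tested genes whose mean counts lay within the range of the repair genes. The median log2 fold change of the class was 0.04 and 0.10, respectively. Break ends are first trimmed by the MRE11-RAD50-NBN complex with CtIP, the product of Rbbp8, and then by EXO1. Mre11a (ENSMUSG00000031928, chromosome 9, 14784654 to 14837123), the nuclease of the complex, had 1405 and 1479.8 normalized counts in the control libraries, 1795 and 1812 in the oxaliplatin libraries and 1752 and 1802 in the cisplatin libraries. All 4 libraries of treated cells lay above both control libraries. The change was 0.32 ± 0.07 (log2, SE, DESeq2 adjusted p = 8.17e-05) after oxaliplatin and 0.30 ± 0.07 (log2, SE, DESeq2 adjusted p = 2.24e-04) after cisplatin. Rad50 (ENSMUSG00000020380, chromosome 11, 53649519 to 53707319), the ATPase of the complex, had 1241 and 1212 normalized counts in the control libraries, 1422 and 1397 in the oxaliplatin libraries and 1293 and 1323 in the cisplatin libraries. It rose after oxaliplatin by 0.20 ± 0.08 (log2, SE, DESeq2 adjusted p = 0.0389), and after cisplatin the value was 0.09 (log2, DESeq2 adjusted p = 0.399). Nbn, which brings ATM to the complex, had 753 and 793 normalized counts in the control libraries, 897 and 883 in the oxaliplatin libraries and 719 and 776 in the cisplatin libraries. Its oxaliplatin libraries lay above all others, and its change against control was 0.20 (log2, DESeq2 adjusted p = 0.131).

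Exo1 (ENSMUSG00000039748, chromosome 1, 175880581 to 175913489) had 746 and 764 normalized counts in the control libraries, 889 and 903 in the oxaliplatin libraries and 899 and 935 in the cisplatin libraries. Treated libraries lay above control libraries, and the 2 drugs overlapped. It rose by 0.25 ± 0.09 (log2, SE, DESeq2 adjusted p = 0.0389) after oxaliplatin and by 0.28 ± 0.09 (log2, SE, DESeq2 adjusted p = 0.0132) after cisplatin. Rbbp8 (ENSMUSG00000041238, chromosome 18, 11633276 to 11745221) had 1246 and 1281 normalized counts in the control libraries, 1361 and 1297 in the oxaliplatin libraries and 1413 and 1527 in the cisplatin libraries, and rose after cisplatin by 0.22 ± 0.08 (log2, SE, DESeq2 adjusted p = 0.0293). Its value after oxaliplatin was 0.07 (log2, DESeq2 adjusted p = 0.593).

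Rad54l (ENSMUSG00000028702, chromosome 4, 116094264 to 116123690), a motor protein that acts in strand invasion of the partner duplex, had 666 and 633 normalized counts in the control libraries, 788 and 784 in the oxaliplatin libraries and 901 and 924 in the cisplatin libraries. The groups were in the order control, oxaliplatin and cisplatin, with no overlap. It rose by 0.28 ± 0.10 (log2, SE, DESeq2 adjusted p = 0.0271) after oxaliplatin and by 0.49 ± 0.10 (log2, SE, DESeq2 adjusted p = 9.02e-06) after cisplatin, a rise of 40.5% and the largest rise among the 52 genes after cisplatin. Brca1 (ENSMUSG00000017146, chromosome 11, 101488764 to 101551955), which promotes the trimming of break ends, had 1634 and 1797 normalized counts in the control libraries, 1634 and 1537 in the oxaliplatin libraries and 2076 and 2114 in the cisplatin libraries. Both cisplatin libraries were above the other 4, and the lowest control and the highest oxaliplatin library both round to 1634. Brca1 rose after cisplatin by 0.29 ± 0.08 (log2, SE, DESeq2 adjusted p = 0.00112), and its change after oxaliplatin was -0.11 (log2, DESeq2 adjusted p = 0.315). Brip1 (ENSMUSG00000034329, chromosome 11, 86058138 to 86201193), the helicase FANCJ that binds BRCA1, had 762 and 821 normalized counts in the control libraries, 808 and 791 in the oxaliplatin libraries and 948 and 921 in the cisplatin libraries, with the oxaliplatin libraries inside the control range, and rose after cisplatin by 0.24 ± 0.10 (log2, SE, DESeq2 adjusted p = 0.0454).

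The other genes of strand exchange did not pass. Brca2, a mediator of strand exchange, had 617 and 713 normalized counts in the control libraries, 639 and 663 in the oxaliplatin libraries and 648 and 662 in the cisplatin libraries, and all treated libraries lay within the control range, with log2 fold changes of -0.03 (95% interval -0.26 to 0.20) and -0.02 (-0.25 to 0.21). The change after cisplatin was -0.13 (log2, DESeq2 adjusted p = 0.613) for Rad51c, -0.20 (log2, DESeq2 adjusted p = 0.204) for Rad51d and -0.30 (log2, DESeq2 adjusted p = 0.121) for Xrcc3, while that of Xrcc2 was 0.16 (log2, DESeq2 adjusted p = 0.391). For Rad51d the groups did not overlap and ran in the order control, oxaliplatin and cisplatin from high to low. Palb2, Rad52, Blm and Rmi1 had log2 fold changes of -0.07, 0.22, 0.04 and -0.01 after oxaliplatin and of 0.09, 0.10, 0.22 and 0.10 after cisplatin, none of which passed. Leaving out any library, also one of the group not compared, lowered the number of all tested genes that passed. A call lost in this way, here or below, therefore need not rest on the library left out. Within this class, Mre11a after oxaliplatin and Rad54l after cisplatin passed whichever 1 of the 6 libraries was left out (highest DESeq2 adjusted p of 0.0377 and 0.0163). Mre11a after cisplatin was lost without cisplatin replicate 2 (adjusted p = 0.0528) and Brca1 after cisplatin without control replicate 1 (0.0865) or cisplatin replicate 2 (0.0703), whereas Rad54l, Exo1 and Rad50 after oxaliplatin and Brip1, Exo1 and Rbbp8 after cisplatin were lost without any 1 of the 6 (adjusted p of 0.110 to 0.374 and of 0.0721 to 0.394).

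In damage signaling, 3 of 6 genes were higher after oxaliplatin, against 10.7% of all tested genes, and 1 of 6 after cisplatin (16.7%), against 15.7%, with median log2 fold changes of 0.18 and 0.03. Atm (ENSMUSG00000034218, chromosome 9, 53439149 to 53536740), the kinase that answers double-strand breaks, had 1019 and 1117 normalized counts in the control libraries, 1373 and 1272 in the oxaliplatin libraries and 1225 and 1305 in the cisplatin libraries. It rose by 0.31 ± 0.09 (log2, SE, DESeq2 adjusted p = 0.00508) after oxaliplatin and by 0.24 ± 0.09 (log2, SE, DESeq2 adjusted p = 0.0293) after cisplatin, and all treated libraries lay above the control libraries. Atr (ENSMUSG00000032409, chromosome 9, 95857597 to 95951781), the kinase that answers single-stranded DNA at stalled forks, had 607 and 688 normalized counts in the control libraries, 825 and 837 in the oxaliplatin libraries and 569 and 609.8 in the cisplatin libraries. Its oxaliplatin libraries were the highest, and its cisplatin libraries overlapped the control range. The change was 0.36 ± 0.11 (log2, SE, DESeq2 adjusted p = 0.00837) after oxaliplatin and -0.14 (log2, DESeq2 adjusted p = 0.403) after cisplatin. Chek1 (ENSMUSG00000032113, chromosome 9, 36708482 to 36727065), the checkpoint kinase activated by ATR, had 755 and 784 normalized counts in the control libraries, 887 and 959.9 in the oxaliplatin libraries and 884 and 869.7 in the cisplatin libraries. It rose by 0.26 ± 0.10 (log2, SE, DESeq2 adjusted p = 0.0340) after oxaliplatin, and its value after cisplatin was 0.19 (log2, DESeq2 adjusted p = 0.139).

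The partners of ATR did not pass: Atrip, which brings ATR to single-stranded DNA, had log2 fold changes of 0.00 and -0.11, and Topbp1, the activator of ATR, of 0.09 and 0.08, after oxaliplatin and cisplatin respectively. Chek2, the checkpoint kinase activated by ATM, had 593 and 612 normalized counts in the control libraries, 515 and 505 in the oxaliplatin libraries and 601 and 584 in the cisplatin libraries. Its oxaliplatin libraries were the lowest, with a change of -0.24 (log2, DESeq2 adjusted p = 0.114). Atm after oxaliplatin was lost without control replicate 1 (0.155) or oxaliplatin replicate 1 (0.231), and Atr after oxaliplatin without control replicate 1 (0.218), oxaliplatin replicate 1 (0.150) or oxaliplatin replicate 2 (0.186; all DESeq2 adjusted p). Chek1 after oxaliplatin and Atm after cisplatin were lost without any 1 of the 6 libraries (adjusted p of 0.122 to 0.457 and of 0.0535 to 0.327).

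In the Fanconi anemia pathway 1 of 10 genes passed after oxaliplatin (10.0%, against 20.2% of all tested genes) and 0 after cisplatin (against 28.1%). An unadjusted p under 0.05 was found for 2 of 10 after each drug, against 28.2% and 35.7% of all tested genes, and 3 and 2 passed with edgeR, against 30.9% and 40.9%. The gene that passed with DESeq2 was Fancd2 (ENSMUSG00000034023, chromosome 6, 113531682 to 113597017), the target of the core complex, with 747 and 829 normalized counts in the control libraries, 1069 and 995 in the oxaliplatin libraries and 862 and 955 in the cisplatin libraries. The groups did not overlap, in the order control, cisplatin and oxaliplatin. Fancd2 rose by 0.39 ± 0.11 (log2, SE, DESeq2 adjusted p = 0.00189) after oxaliplatin, or 30.9%, and its value after cisplatin was 0.20 (log2, DESeq2 adjusted p = 0.137). Fanci, its partner, had 550.0 and 579 normalized counts in the control libraries, 638 and 663 in the oxaliplatin libraries and 579 and 559.7 in the cisplatin libraries, with changes of 0.20 (log2, DESeq2 adjusted p = 0.191) and 0.01 (log2, DESeq2 adjusted p = 0.955). Usp1 was at 0.13 (log2, DESeq2 adjusted p = 0.0727) and 0.09 (log2, DESeq2 adjusted p = 0.239), and Fancm, the translocase that finds the crosslink, had log2 fold changes of 0.13 and 0.17.

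Core complex genes varied around 0. Fancl, the ubiquitin ligase of the complex, had 229 and 269 normalized counts in the control libraries, 223 and 217 in the oxaliplatin libraries and 167 and 195 in the cisplatin libraries. Its cisplatin libraries were the lowest, with a change of -0.46 (log2, DESeq2 adjusted p = 0.0579). Fancb, which binds FANCL, had 319.6 and 347 normalized counts in the control libraries, 348 and 329 in the oxaliplatin libraries and 423 and 405 in the cisplatin libraries. Its cisplatin libraries were the highest, with 0.31 (log2, DESeq2 adjusted p = 0.0838). Fancf, an adaptor of the complex and the least abundant of the 52 genes, had 78.9 and 101 normalized counts in the control libraries, 111 and 127 in the oxaliplatin libraries and 73.5 and 81.9 in the cisplatin libraries, with log2 fold changes of 0.40 ± 0.29 and -0.22 ± 0.29 (SE), and neither passed. Fanca, Fance and Fancg had log2 fold changes of 0.03, -0.01 and -0.06 after oxaliplatin and of 0.05, 0.09 and 0.08 after cisplatin. Fancd2 after oxaliplatin was lost without control replicate 1 (DESeq2 adjusted p = 0.1005) or oxaliplatin replicate 1 (0.145).

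In nucleotide excision repair 0 of 6 genes passed with DESeq2 after oxaliplatin (against 20.2% of all tested genes) and 1, lower, after cisplatin (16.7%, against 28.1%). After oxaliplatin 0 had an unadjusted p under 0.05 (against 28.2% of all tested genes). With edgeR 0 passed after oxaliplatin (against 30.9%) and 5 after cisplatin (83.3%, against 40.9%). Of these, Ercc2 and Ercc3 were higher and Ercc4, Ercc6 and Xpa lower. The median log2 fold changes were -0.05 and -0.13. Ercc4 (ENSMUSG00000022545, chromosome 16, 13109684 to 13150617), the catalytic subunit XPF of the nuclease that cuts on the 5′ side of a lesion and also acts at interstrand crosslinks, had 265 and 246 normalized counts in the control libraries, 231 and 245 in the oxaliplatin libraries and 176 and 188 in the cisplatin libraries. The cisplatin libraries were below the other 4. With cisplatin, Ercc4 fell by 0.49 in log2 units, with an SE of 0.18 (DESeq2 adjusted p = 0.0281), and its value after oxaliplatin was -0.10 (log2, DESeq2 adjusted p = 0.748). Ercc1, the partner of XPF, had 316 and 287 normalized counts in the control libraries, 261 and 282 in the oxaliplatin libraries and 309 and 285 in the cisplatin libraries, and its log2 fold changes were -0.15 and -0.02. Xpa, which verifies the damage, had 146 and 130.1 normalized counts in the control libraries, 130.0 and 133 in the oxaliplatin libraries and 105 and 105 in the cisplatin libraries. As for Ercc4, its cisplatin libraries were the lowest, and its change after cisplatin was -0.39 (log2, DESeq2 adjusted p = 0.221).

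The TFIIH helicase genes did not pass against control. Ercc2, the XPD helicase, was at -0.03 (log2, DESeq2 adjusted p = 0.913) after oxaliplatin and 0.27 (log2, DESeq2 adjusted p = 0.0644) after cisplatin, and Ercc3, the XPB translocase, had log2 fold changes of 0.04 and 0.13. Ercc6, the CSB protein of transcription-coupled repair, had log2 fold changes of 0.13 and -0.23. Ercc4 after cisplatin was lost without any 1 of the 6 libraries (DESeq2 adjusted p of 0.105 to 0.287).

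None of the 4 structure-specific nuclease genes passed with DESeq2 against control after either drug (against 20.2% and 28.1% of all tested genes). An unadjusted p under 0.05 was found for 0 after oxaliplatin and 2 after cisplatin (against 28.2% and 35.7% of all tested genes). As many of the 4 passed with edgeR (against 30.9% and 40.9%). Mus81, the nuclease that cuts stalled forks, had 451 and 399 normalized counts in the control libraries, 455 and 441 in the oxaliplatin libraries and 353 and 311 in the cisplatin libraries. Eme1, its partner, had 451 and 403 normalized counts in the control libraries, 485 and 493 in the oxaliplatin libraries and 516 and 527 in the cisplatin libraries. The cisplatin libraries were the lowest for Mus81, with a change of -0.36 (log2, DESeq2 adjusted p = 0.0503), and the highest for Eme1, with 0.29 (log2, DESeq2 adjusted p = 0.0736). Slx4, the scaffold that holds MUS81-EME1 and XPF-ERCC1, was at 0.10 (log2, DESeq2 adjusted p = 0.462) and -0.12 (log2, DESeq2 adjusted p = 0.322). Fan1, a nuclease that binds ubiquitinated FANCD2, had log2 fold changes of -0.25 and -0.36, with wide 95% intervals of -0.80 to 0.29 and -0.91 to 0.19.

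In translesion synthesis 1 of 5 genes passed after oxaliplatin, as higher (20.0%, against 20.2% of all tested genes, 10.7% as higher). With DESeq2 0 passed after cisplatin (against 28.1%). After cisplatin 1 of the 5 had an unadjusted p under 0.05 (against 35.7% of all tested genes) and 2 passed with edgeR (against 40.9%). Mad2l2 (ENSMUSG00000029003, chromosome 4, 148130384 to 148145699), the REV7 subunit of polymerase zeta, had 652 and 659 normalized counts in the control libraries, 797 and 796 in the oxaliplatin libraries and 780.3 and 749 in the cisplatin libraries. Both drug groups lay above control. It rose by 0.28 ± 0.10 (log2, SE, DESeq2 adjusted p = 0.0248) after oxaliplatin, and its value after cisplatin was 0.22 (log2, DESeq2 adjusted p = 0.0797). Rev3l, the catalytic subunit of the same polymerase, had log2 fold changes of -0.04 and -0.09, Rev1, its scaffold, of 0.15 and -0.06, and Rad18, the ligase that places ubiquitin on PCNA, of 0.10 and 0.15. Poli, polymerase iota, had 265 and 263 normalized counts in the control libraries, 218 and 207 in the oxaliplatin libraries and 212 and 213 in the cisplatin libraries. Its treated libraries all lay below control, with changes of -0.31 (log2, DESeq2 adjusted p = 0.199) and -0.31 (log2, DESeq2 adjusted p = 0.171). Mad2l2 after oxaliplatin was lost without any 1 of the 6 libraries (DESeq2 adjusted p of 0.107 to 0.278).

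The 1 repair gene that passed as lower with DESeq2 after oxaliplatin was in mismatch repair. Msh6 (ENSMUSG00000005370, chromosome 17, 87975062 to 87990892), a mismatch recognition subunit, had 3613 and 3581 normalized counts in the control libraries, 3032 and 3139 in the oxaliplatin libraries and 3541 and 3527 in the cisplatin libraries. The oxaliplatin libraries were below the other 4, and the cisplatin libraries were just below control. With oxaliplatin, Msh6 fell by 0.22 in log2 units, with an SE of 0.05 (DESeq2 adjusted p = 2.25e-04), and its value after cisplatin was -0.03 (log2, DESeq2 adjusted p = 0.767). The call was lost without oxaliplatin replicate 1 (adjusted p = 0.0906). Pms2, a subunit of the nuclease that acts after recognition, had log2 fold changes of 0.10 and 0.17, neither of which passed. In single-strand break repair, Parp1 (ENSMUSG00000026496, chromosome 1, 180568924 to 180601254) had 3975 and 4089 normalized counts in the control libraries, 3968 and 3941 in the oxaliplatin libraries and 4428 and 4461 in the cisplatin libraries. The cisplatin libraries lay above both control libraries and the oxaliplatin libraries just below them, and the rise after cisplatin was 0.14 ± 0.05 (log2, SE, DESeq2 adjusted p = 0.0141), lost without any 1 of the 6 libraries (adjusted p of 0.0698 to 0.208). Xrcc1, the scaffold recruited by PARP1, had 982 and 929 normalized counts in the control libraries, 939.5 and 933 in the oxaliplatin libraries and 1095 and 1071 in the cisplatin libraries, with changes of -0.03 (log2, DESeq2 adjusted p = 0.873) and 0.18 (log2, DESeq2 adjusted p = 0.108).

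The direct comparison asks whether the 2 platinum compounds, given at the same dose for the same time, left these genes at different levels. Of 52 genes 8 passed (15.4%, against 19.9% of all tested genes), 4 higher with oxaliplatin (8.62% of all tested genes) and 4 higher with cisplatin (11.3%). With edgeR 36.5% of the repair genes passed, against 31.9% of all tested genes. With either total-count or TMM scaling, 5 were higher with oxaliplatin and 3 with cisplatin. Adjusted p-values cover the tested genes kept by the DESeq2 filter on mean count in this 1 pair of compounds. Atr was higher with oxaliplatin by 0.50 ± 0.11 (log2, SE, DESeq2 adjusted p = 1.42e-04), the largest difference that passed, and Mus81 by 0.43 ± 0.15 (log2, SE, DESeq2 adjusted p = 0.0173). Ercc6, with 597 and 543 normalized counts after oxaliplatin and 419 and 468 after cisplatin, differed by 0.36 ± 0.13 (log2, SE, DESeq2 adjusted p = 0.0302), and Nbn by 0.25 ± 0.10 (log2, SE, DESeq2 adjusted p = 0.0486). Thus the 4 genes higher with oxaliplatin came from signaling, a nuclease, transcription-coupled repair and the MRE11 complex.

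Brca1 was lower with oxaliplatin than with cisplatin, at -0.40 ± 0.08 (log2, SE, DESeq2 adjusted p = 3.42e-06), as were Msh6 at -0.20 ± 0.05 (log2, SE, DESeq2 adjusted p = 0.00145) and Parp1 at -0.17 ± 0.05 (log2, SE, DESeq2 adjusted p = 0.00317). Ercc2, with 489 and 484 normalized counts after oxaliplatin and 605 and 592 after cisplatin, differed by -0.30 ± 0.12 (log2, SE, DESeq2 adjusted p = 0.0468). The Brca1 difference passed whichever 1 library was left out (highest adjusted p of 0.0119). The Atr difference was lost without cisplatin replicate 1 (adjusted p = 0.0531), Msh6 without oxaliplatin replicate 1 (0.179), cisplatin replicate 1 (0.0942) or cisplatin replicate 2 (0.0767), and Mus81 and Parp1 without any 1 of the 4 drug libraries (0.0872 to 0.313 and 0.105 to 0.149). Nbn, Ercc2 and Ercc6 were lost without any 1 of the 6 libraries (adjusted p of 0.0610 to 0.459).

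For the genes that were higher after both drugs, the direct log2 difference was small for Mre11a (0.02, 95% interval -0.12 to 0.16), Exo1 (-0.03, -0.22 to 0.15) and Atm (0.06, -0.11 to 0.24). For Rad54l the log2 difference was -0.21 (-0.41 to -0.02; DESeq2 adjusted p = 0.0932). Several genes that passed after 1 drug and not after the other did not pass between the drugs: the difference was 0.18 (log2, DESeq2 adjusted p = 0.202) for Fancd2, 0.11 (log2, DESeq2 adjusted p = 0.334) for Rad50, 0.07 (log2, DESeq2 adjusted p = 0.649) for Chek1, 0.06 (log2, DESeq2 adjusted p = 0.733) for Mad2l2, -0.23 (log2, DESeq2 adjusted p = 0.0744) for Brip1, -0.14 (log2, DESeq2 adjusted p = 0.199) for Rbbp8 and 0.38 (log2, DESeq2 adjusted p = 0.114) for Ercc4. For these genes a difference between the drugs was not shown. Fancf had the widest gap of all, 0.62 (log2, DESeq2 adjusted p = 0.106), and Slx4 was at 0.21 (log2, DESeq2 adjusted p = 0.0503). The 95% interval lay within 0.5 of 0 for 40 of the 52 genes, and the libraries of the drugs did not overlap for 34 (65.4%, against 68.0% of all tested genes; 18 higher with oxaliplatin, against 33.5%, and 16 higher with cisplatin, against 34.5%).

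**Figure D3:**
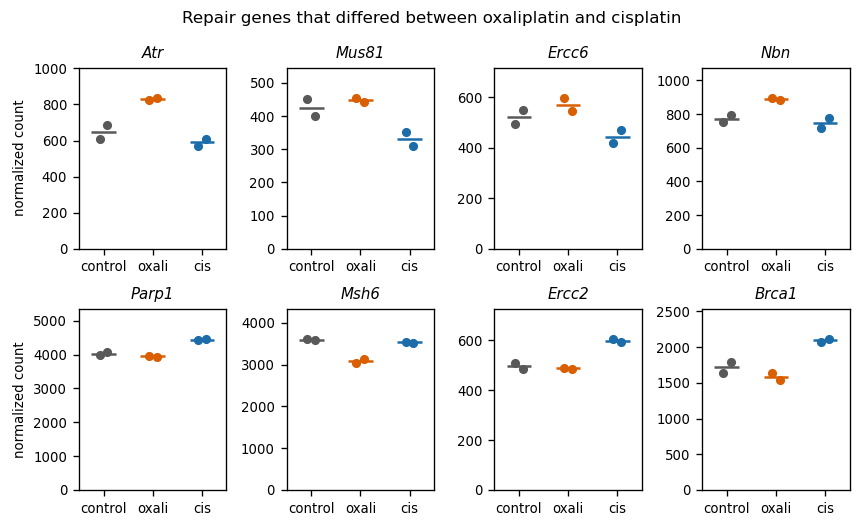
Normalized counts (vertical axes, from 0) of the 8 repair genes that passed between the drugs, with a point for each library and a line for the mean of the 2 libraries of each group. Atr, Mus81, Ercc6 and Nbn (top) are higher with oxaliplatin (oxali), and Parp1, Msh6, Ercc2 and Brca1 (bottom) are higher with cisplatin (cis).

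Other repair genes, 66 in number and written from general knowledge of the pathways, are given for comparison. After oxaliplatin 8 were higher and 3 lower (16.7% of 66, against 20.2% of all tested genes), after cisplatin 10 higher and 9 lower (28.8%, against 28.1%), and between the drugs 8 were higher with oxaliplatin and 8 with cisplatin (24.2%, against 19.9%). Gtf2h1, a core subunit of TFIIH, led the rises after both drugs, with 0.70 (log2, DESeq2 adjusted p = 3.64e-20) and 0.96 (log2, DESeq2 adjusted p = 4.63e-38). Rpa1 and Rpa2, which coat single-stranded DNA, were at 0.43 (log2, DESeq2 adjusted p = 3.52e-19) and 0.74 (log2, DESeq2 adjusted p = 3.82e-20) after cisplatin, and both were lower with oxaliplatin than with cisplatin, at -0.25 (log2, DESeq2 adjusted p = 3.75e-07) and -0.67 (log2, DESeq2 adjusted p = 1.25e-16). Rad23b, a partner of the damage sensor XPC, rose after oxaliplatin by 0.28 (log2, DESeq2 adjusted p = 3.32e-11). Among the falls, Lig3, the ligase that works with XRCC1, was at -0.22 (log2, DESeq2 adjusted p = 0.0288) and -0.33 (log2, DESeq2 adjusted p = 2.50e-04) after oxaliplatin and cisplatin, Mpg and Ung, glycosylases of base excision repair, at -0.30 (log2, DESeq2 adjusted p = 0.0410) after oxaliplatin and -0.52 (log2, DESeq2 adjusted p = 0.00887) after cisplatin, and Faap100, a core complex subunit, at -0.55 (log2, DESeq2 adjusted p = 3.08e-04) after cisplatin. Ddb1, of the damage-sensing UV-DDB complex, was lower after oxaliplatin, at -0.10 (log2, DESeq2 adjusted p = 0.00379) and also lower than with cisplatin, at -0.13 (log2, DESeq2 adjusted p = 1.85e-04). Higher with oxaliplatin than with cisplatin were Prkdc, at 0.39 (log2, DESeq2 adjusted p = 0.00267), the kinase of end joining, and Uvssa, at 0.50 (log2, DESeq2 adjusted p = 0.00995), of transcription-coupled repair.

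Cell cycle genes moved in the same libraries. Of 25 G1/S and replication genes, 10 were higher and 2 lower after oxaliplatin, with a median log2 fold change of 0.13, and 21 were higher and 0 lower after cisplatin, with a median of 0.34, while 15 were lower and 0 higher with oxaliplatin than with cisplatin. Of 18 G2/M genes, 6 were higher and 0 lower after oxaliplatin, 4 higher and 4 lower after cisplatin, and 7 higher and 2 lower with oxaliplatin than with cisplatin. Of 13 p53 target genes, 4 were higher and 5 lower after oxaliplatin, 5 higher and 2 lower after cisplatin, and 7 lower and 0 higher with oxaliplatin than with cisplatin. The shares of these lists that passed after oxaliplatin, after cisplatin and between the drugs were 48.0, 84.0 and 60.0% for the G1/S and replication genes and 69.2, 53.8 and 53.8% for the p53 target genes, and 6, 8 and 9 of the 18 G2/M genes passed, against 20.2, 28.1 and 19.9% of all tested genes. The lists were not matched to that background. Median counts were 2394 (G1/S and replication), 3936 (G2/M) and 716 (p53 targets), against 481. The median SE after oxaliplatin was 0.068, 0.057 and 0.103, against 0.132, so that smaller changes could pass. Genes such as Brca1, Rad54l and Exo1 are themselves transcribed mainly in S phase, and the part of cell cycle position in their values was not tested. In bulk libraries, a change in the share of cells in a phase and a change of RNA per cell cannot be told apart.

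**Figure D4:**
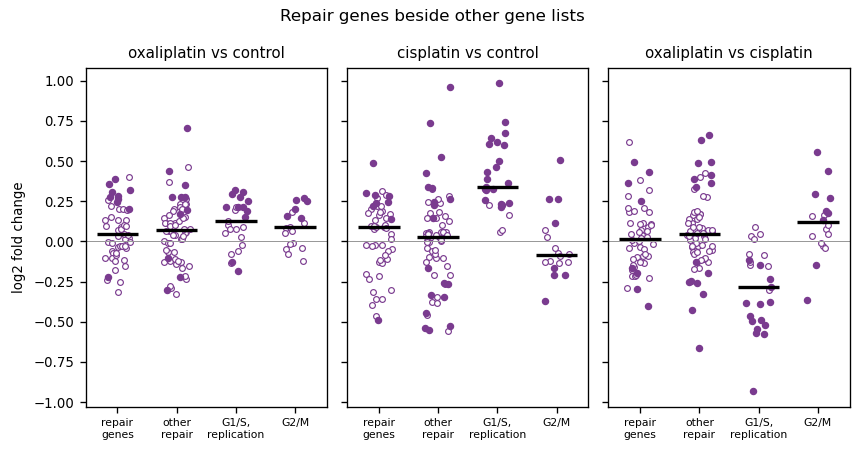
Log2 fold changes of single genes (circles, filled at adjusted p under 0.05) and their medians (lines) for the 52 repair genes and the lists of other repair, G1/S and replication, and G2/M genes in the 3 comparisons. The G1/S and replication genes have a median of 0.34 after cisplatin, and the 52 repair genes 0.09.

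Bulky adducts can stall RNA polymerase, and the genomic span of each gene was therefore set beside its change. The repair genes spanned 1.69 to 143 kb of the genome, with a median of 29.6 kb against 19.2 kb for all tested genes. Among all tested genes, the 885 that span over 160 kb had a median log2 fold change of -0.25 after cisplatin and of -0.03 after oxaliplatin, but none of the repair genes was that long. In the bin of 80 to 160 kb, the 1406 genes had a median of -0.06 after cisplatin, and the 7 repair genes in it (Fancl, Rev3l, Blm, Atr, Atm, Brip1 and Rbbp8) had a median of 0.22. Across the 52 genes, Spearman's rho between span and change was 0.14 after oxaliplatin, 0.09 after cisplatin and 0.07 between the drugs, and across the 14946 tested genes with a span it was -0.03, -0.13 and 0.12. Genes share libraries and are not independent, so these are descriptions.

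**Figure D5:**
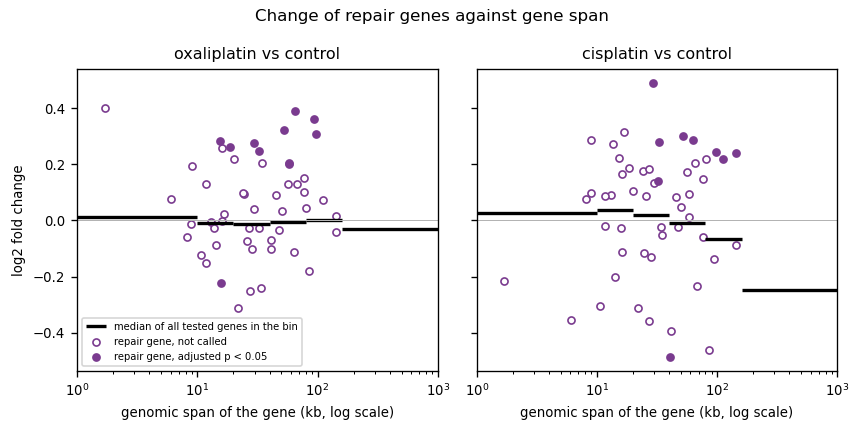
Log2 fold change of the 52 repair genes (circles, filled at adjusted p under 0.05) against the genomic span of the gene in kb (log axis), after oxaliplatin and after cisplatin, with black lines for the median of all tested genes in each span bin. After cisplatin the line drops to -0.25 above 160 kb, where no repair gene lies.

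Some of these counts may hold reads of a neighboring gene. Exons of 18 of the 52 genes share bases with an exon of another expressed gene, in 17 cases on the opposite strand alone, and whether the counting used strand is not given in the sources used here. Among the genes that passed, Rad54l shares 1184 exonic bases with Lrrc41, Ercc2 744 with Klc3, Atr 462 with Gm16794, Mus81 173 with Efemp2, Mre11a 154 with Ankrd49 and Msh6 34 with Fbxo11. Atrip and Trex1 overlap by 1147 bases on the same strand, so that their counts are uncertain.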

How the data were processed

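Samples were 6 poly(A) RNA-seq libraries (2 control, 2 oxaliplatin and 2 cisplatin), which were grouped by their titles. The authors deposited expected counts per gene, which are not scaled between libraries (7977 to 8235 values per library are not whole). The submitters' processing notes name STAR 2.5.3a, RSEM 1.3.0 and GRCm38.p6, whereas the methods of the study describe another counter with GENCODE vM12 for in vitro RNA-seq. Whether that release was used for this table is not given in the sources used here. Symbols, spans and exon overlaps came from GENCODE M21 (54409 of 54446 identifiers matched, versions removed), and promoters from RefSeq.

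Expected counts were rounded, and the 14956 genes reaching 10 counts in 2 or more libraries entered 1 DESeq2 1.42.0 fit (R 4.3.3) of the 6 libraries by group. Size factors came from the median of ratios (0.964 to 1.08), followed by two-sided Wald tests and unshrunken log2 fold changes. Benjamini-Hochberg adjustment covered the genes of a contrast kept by the independent filtering of DESeq2 on mean count, set at a level of 0.1. Genes removed by it counted as not passing. A gene passed at an adjusted p under 0.05. Alternatives covered edgeR 4.0.16, scaling, filters, a replicate block, the libraries fitted, the trend with gene span and each library left out. The members and lists were chosen with earlier results of these data known. All 52 members could be named, and of the other repair genes the 3 with the smallest adjusted p in each direction and contrast. Values of some genes are not reported here. Intervals and the 3-count limit cover no error beyond the model and the counting.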

Additional observations from a re-analysis of the deposited data

How the results depend on the processing

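With 2 libraries a group, the number of repair genes that passed depended on the test. For oxaliplatin against control, cisplatin against control and oxaliplatin against cisplatin, 10, 9 and 8 passed with DESeq2, and 16, 24 and 19 with edgeR (all tested genes: 3028, 4203 and 2977 with DESeq2 and 4618, 6112 and 4773 with edgeR). Without the independent filtering of DESeq2, 10, 8 and 6 repair genes passed (all tested genes: 2923, 4093 and 2861). Brip1 after cisplatin and Nbn and Ercc2 between the drugs were then lost. Only the 4 libraries of the groups compared gave 5, 5 and 7 repair genes (all tested genes: 2609, 3573 and 2884). Leaving out 1 library gave 1 to 5, 1 to 3 and 1 to 5 repair genes (all tested genes: 1213 to 2159, 2089 to 3021 and 1184 to 2453). Mre11a after oxaliplatin, Rad54l after cisplatin and Brca1 between the drugs passed under all 15 alternatives, with adjusted p of 1.08e-05 to 0.0377, 6.61e-06 to 0.0163 and 3.55e-08 to 0.0119, and no repair gene that passed changed sign under any of them.

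The labels give the groups the same replicate numbers but do not say that a number marks a shared culture, and deviations of same-numbered libraries correlated with r of 0.07 (control and oxaliplatin), -0.05 (control and cisplatin) and -0.19 (oxaliplatin and cisplatin) over 10731 genes. With the replicate block, 4, 3 and 4 repair genes passed (all tested genes: 1958, 2833 and 1861). With the cisplatin numbers crossed, an alternative chosen after seeing the data, 3 repair genes and 1704 of all tested genes passed between the drugs.

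With total-count scaling the median log2 fold change of all genes was -0.02, -0.05 and 0.03, against 0.00 in each comparison with median-of-ratios factors. This scaling changed the split of higher and lower repair genes after cisplatin from 8 and 1 to 4 and 3 (all tested genes from 2355 and 1848 to 1824 and 2376) and between the drugs from 4 and 4 to 5 and 3 (from 1289 and 1688 to 1622 and 1364).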
